A study of Homo sapiens with 24 samples.

Results

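The genes described here are 8 receptors and ligands of blood cell growth factors: the receptor tyrosine kinase genes KIT, FLT3 and CSF1R, the cytokine receptor genes CSF3R, CSF2RB and EPOR, and the ligand genes KITLG and FLT3LG. They were chosen by name, as a family, but with earlier results of these data known. All 8 were measured among the 18417 genes tested. Each is read by 1 probe set of its own. RNA was measured on 24 arrays of THP-1, a leukaemia line of human monocytic cells obtained from ATCC. The cells had been infected with a pSLIK lentivirus and selected with G418, and 3 lines were made. The vector line carries the empty vector, the NOD1 line a 3X FLAG-tagged NOD1 and the NLRP4 line a 3X FLAG-tagged NLRP4. The inserted gene is driven by a tetracycline-inducible (TRE) promoter, so that doxycycline (DOX) switches it on. Each line was measured without DOX and after 6 h with DOX at 1 µg/ml, with 4 arrays in each of the 6 groups. The labels state an infection frequency under 30%, chosen so that most cells hold 1 integration. They do not say whether a line is 1 clone, nor whether wells of the same group were cultured apart. What the p-values weigh is thus well-to-well scatter that can be purely technical. Wells were laid out in a preset order without randomization, and the arrays are numbered line by line with the uninduced wells first, so an effect of line cannot be told apart from place in that order, nor can an effect of DOX.

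KIT, FLT3 and CSF1R are class III receptor tyrosine kinases. A dimeric ligand (stem cell factor, made from KITLG; FLT3 ligand, made from FLT3LG; or CSF-1 and interleukin 34 for CSF1R) pairs 2 receptor chains, which phosphorylate each other and start RAS-ERK and PI3K-AKT signalling. KIT and FLT3 are known from stem and progenitor cells and from acute leukaemia, and KIT stays on in mast cells, whereas CSF1R is the receptor of monocytes and macrophages. CSF3R, the G-CSF receptor, CSF2RB, the beta chain shared by the receptors of GM-CSF, interleukin 3 and interleukin 5, and EPOR, the erythropoietin receptor, have no kinase of their own and signal through bound JAK kinases and STAT proteins.

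The genes KIT, FLT3, CSF1R and CSF3R are the ones whose levels differed between lines, and the DNA just upstream of their start sites is shown because the data bear on their transcripts. Of the 8 genes, 7 had an entry in the RefSeq promoter table (GRCh38.p14). Each line gives the 250 bases before the start site, 5′ to 3′ on the gene's strand. The windows are chr4:54657707-54657956 (plus strand) for KIT, chr13:28100577-28100826 (minus strand) for FLT3, chr5:150086555-150086804 (minus strand) for CSF1R and chr1:36482914-36483163 (minus strand) for CSF3R. Capitals mark matches, on either strand, to 5 short motifs. PU.1 sites were searched for by their core GAGGAA. For RUNX proteins the letters were TGTGGT. The GATA factors were represented by the letters AGATAA. For the C/EBP family the search used TTGCNNAA, where N is any base. The SP1 box was searched as GGGCGG.
KIT: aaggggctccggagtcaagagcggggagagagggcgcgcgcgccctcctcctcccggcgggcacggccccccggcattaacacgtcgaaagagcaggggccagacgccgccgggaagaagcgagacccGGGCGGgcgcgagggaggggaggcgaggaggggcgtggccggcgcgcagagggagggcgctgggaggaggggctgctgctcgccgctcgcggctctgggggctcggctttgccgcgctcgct
FLT3: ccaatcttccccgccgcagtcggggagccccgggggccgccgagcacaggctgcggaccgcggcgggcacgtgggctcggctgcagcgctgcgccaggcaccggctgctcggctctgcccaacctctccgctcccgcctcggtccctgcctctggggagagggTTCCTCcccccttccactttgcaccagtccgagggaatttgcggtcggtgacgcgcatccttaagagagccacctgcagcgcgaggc
CSF1R: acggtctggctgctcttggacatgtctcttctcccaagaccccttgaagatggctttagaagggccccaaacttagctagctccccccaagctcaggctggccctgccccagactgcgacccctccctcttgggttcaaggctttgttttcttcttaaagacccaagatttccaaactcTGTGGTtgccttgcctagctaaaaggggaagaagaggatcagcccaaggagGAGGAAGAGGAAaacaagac
CSF3R: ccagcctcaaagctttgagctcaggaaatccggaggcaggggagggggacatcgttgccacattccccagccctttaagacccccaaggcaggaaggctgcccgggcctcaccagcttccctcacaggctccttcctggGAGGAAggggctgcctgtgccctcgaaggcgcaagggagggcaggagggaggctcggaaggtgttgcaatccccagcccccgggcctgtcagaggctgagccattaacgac
The KIT window is the richest in G and C, with 76.4% G or C and 34 CpG pairs, more CpG than most of the 35116 promoters in the table (percentile 94.2). The FLT3 window has 72% G or C and 26 CpG pairs. The CSF1R and CSF3R windows lie inside the annotated spans of their genes. The CSF1R window has 53.2% and 2 CpG pairs, and the CSF3R window has 64.4% and 8. The PU.1 core is in 3 of these 4 windows: 2 adjoining copies 20 and 14 bases before the CSF1R start, 1 copy 111 bases before the CSF3R start and 1 on the opposite strand 87 bases before the FLT3 start. Of all promoters of this length in the table, 23.6% hold it. The KIT window does not. Among the windows searched but not shown, that of FLT3LG, a gene not called between lines, holds it 104 bases before the start. Those of EPOR and KITLG do not. The CSF1R window also holds the RUNX core, found in 11% of all promoters, and the KIT window holds the SP1 box, found in 42.6%. None of the 4 windows matches the GATA core (9.17% of all promoters) or the C/EBP motif (9.05%), which says only that these letters are not in these 250 bases.

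The values are log2 signals after quantile normalization between arrays, so a difference of 1 is a doubling of signal. Arrays of one group correlated at 0.982 to 0.993 over all genes. The deposited array medians ran from 8.06 to 8.85. Signal at or below 8.00 is called the low end here: it is the 90th percentile of the group means of 341 olfactory receptor genes, and 29.3% of all gene group means lie there. A fold against a group at the low end is given as "at least". Among the inserted genes, NOD1 rose from 8.74 to 12.75 with DOX in the NOD1 line, and NLRP4 rose from 8.09 to 11.93 in the NLRP4 line. Levels of different genes come from different probes and are not ranked against each other. The low end and the summed marker signals below do cross genes and are rough guides only.

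The order of the 6 group means separated by line more than by DOX, and most neighbours in that order overlapped. For KIT the order was the uninduced NOD1 line at 9.09, the DOX-treated NOD1 line at 8.60, and then the other 4 groups between 7.19 and 7.35, which overlapped each other. For FLT3 the 2 NOD1 and 2 NLRP4 groups, at 10.73 to 11.02, overlapped in turn, and only the step down to the vector line, at 10.30 without and with DOX, was free of overlap. For CSF1R both NOD1 groups came first (9.62 and 9.53) and the other 4 followed at 8.91 to 9.07. The 6 means of CSF3R ran from 8.55 to 9.01, with both NOD1 groups first. No pair of neighbouring groups was free of overlap for CSF1R, CSF3R, CSF2RB, EPOR, KITLG or FLT3LG. From the highest to the lowest group the means spanned 1.90 for KIT, 0.72 for FLT3, 0.71 for CSF1R, 0.59 for KITLG, 0.46 for CSF3R, 0.23 for EPOR, 0.21 for CSF2RB and 0.18 for FLT3LG. The pooled spread within groups was 0.20 for KIT, 0.13 for FLT3 and 0.37 for KITLG (SD, 4 arrays in each of 6 groups), so KITLG had the widest scatter of the 8.

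**Figure D1:**
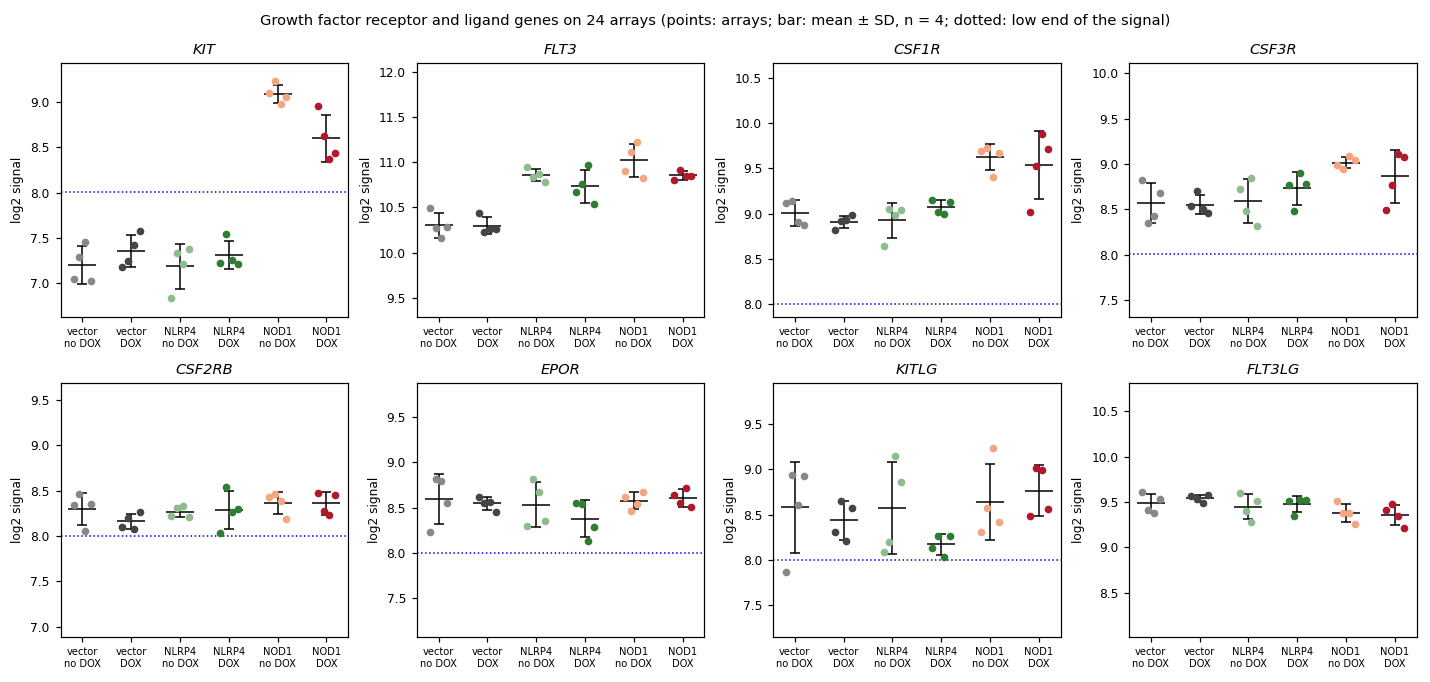
Log2 signal of the 8 genes (vertical axis, 1 panel a gene, all panels of the same height in log2 units) in the 6 groups of line and DOX. Points are arrays, bars the mean ± SD (n = 4), and the dotted line is the low end of the signal; the KIT arrays of the NOD1 line lie above it and all 16 others below.

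KIT, the stem cell factor receptor gene, was above the low end in the NOD1 line only. Its 4 uninduced NOD1 arrays read 9.10, 9.23, 8.98 and 9.05, and the 4 with DOX read 8.95, 8.63, 8.38 and 8.44. In the vector line the arrays read 7.04, 7.29, 7.45 and 7.02 without DOX and 7.18, 7.25, 7.42 and 7.57 with it. Every NOD1 array was above every vector array. The NLRP4 line read 6.83, 7.33, 7.21 and 7.38 without DOX and 7.23, 7.54, 7.25 and 7.21 with DOX, inside the range of the vector line but for its lowest array. The olfactory receptor genes have a median of 6.81, so the KIT signal in these 2 lines is close to that of genes not thought to be on in such cells. KIT is encoded at chr4:54657957-54740715 (GRCh38.p14, as are the locations that follow).

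FLT3, the FLT3 ligand receptor gene (chr13:28003274-28100576), was well above the low end on all 24 arrays. The vector line read 10.50, 10.27, 10.16 and 10.28 without DOX and 10.43, 10.23, 10.26 and 10.26 with it. In the NLRP4 line the arrays read 10.95, 10.84, 10.87 and 10.79 without DOX and 10.67, 10.75, 10.97 and 10.54 with it. All 8 were above all 8 arrays of the vector line. The NOD1 line read 10.91, 11.12, 11.22 and 10.83 without DOX and 10.80, 10.92, 10.84 and 10.85 with it, from the upper part of the NLRP4 range to above it.

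CSF1R, the receptor of CSF-1 and of interleukin 34 (chr5:150053295-150113365), was higher in the NOD1 line. Its uninduced NOD1 arrays read 9.69, 9.73, 9.41 and 9.67, and those with DOX 9.02, 9.52, 9.88 and 9.71. The 16 arrays of the other 2 lines lay between 8.64 and 9.15. The uninduced NOD1 arrays therefore stood clear of all of them, and 1 DOX-treated NOD1 array, replicate 1 at 9.02, fell among them. The same array had the lowest CSF3R (8.49), the lowest FLT3 (10.80) and the lowest KITLG (8.49) of its group, and the highest KIT (8.95).

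**Figure D2:**
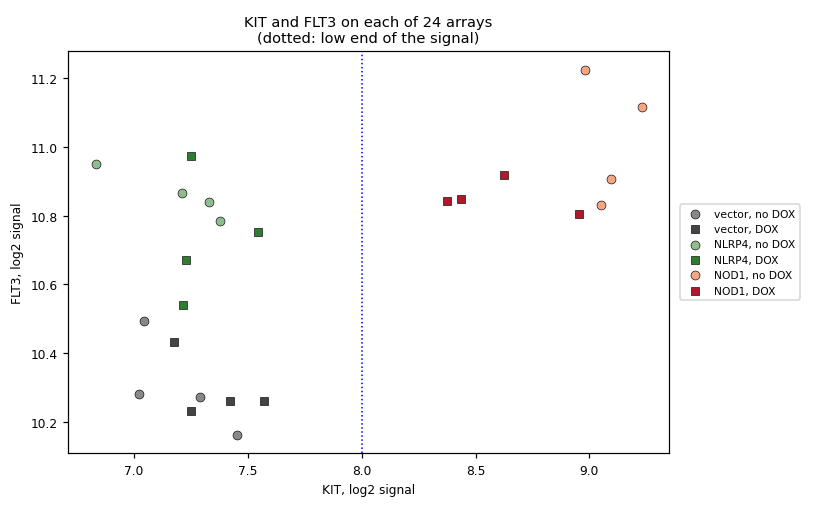
KIT (horizontal axis) against FLT3 (vertical axis), both as log2 signal, with 1 point for each of the 24 arrays, coloured by line and DOX; the dotted line is the low end. The NOD1 arrays are set apart by KIT alone, at 8.38 or more, and the vector arrays by FLT3, at 10.50 or less.

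The uninduced NOD1 line and the uninduced vector line were compared to see how the receptor genes stood without the inducer. NOD1 itself was 1.32-fold higher in the uninduced NOD1 line than in the vector line (log2 0.40, limma adjusted p = 0.0299), and 0.45 higher than in the NLRP4 line (limma adjusted p = 0.0136). The NOD1 arrays overlapped in both comparisons, and against the vector line NOD1 ranked 4047 by p. Of the 8 genes, 4 were higher in the NOD1 line and none was lower. KIT was at least 3.70-fold higher (log2 difference 1.89, SE 0.134, adjusted p = 7.64e-10 by limma with Benjamini-Hochberg adjustment over all genes). FLT3 was 1.64-fold higher (0.72, SE 0.0955, limma adjusted p = 5.03e-06), and CSF1R 1.53-fold higher (0.62, SE 0.131, limma adjusted p = 0.000982). CSF3R, the G-CSF receptor gene at chr1:36466043-36483314, was 1.36-fold higher (0.44, SE 0.134, limma adjusted p = 0.0163). Its arrays read 8.99, 8.94, 9.09 and 9.04 in the NOD1 line and 8.83, 8.35, 8.43 and 8.68 in the vector line. The arrays of these 4 genes did not overlap between the lines. Because each well is a pool of cells, more cells with the transcript and more of it per cell cannot be told apart. The other 4 were not called: CSF2RB differed by 0.07 (95% interval −0.14 to 0.27), EPOR by −0.02 (−0.28 to 0.24), KITLG by 0.05 (−0.43 to 0.54) and FLT3LG by −0.10 (−0.27 to 0.06).

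These 4 of 8 have to be read against a wide difference between the 2 lines. In this comparison 24.9% of all genes were called, that is, had an adjusted p under 0.05, and the arrays of 21.0% did not overlap. Of the genes called 52.2% were higher in the NOD1 line, a share that became 57.2% in the values as deposited, 36.5% with arrays centred on their medians and 63.2% with quantile normalization over all probe sets. The median difference was 0.25 over the 8 genes and 0.03 over all genes. KIT ranked 15 by p among the 18417 genes, FLT3 417, CSF1R 1838 and CSF3R 3500. The CSF3R call was lost without replicate 2 (log2 0.37, adjusted p = 0.0676) or replicate 3 (0.40, adjusted p = 0.0557) of the uninduced vector line, and without the 4 dimmest arrays (0.38, adjusted p = 0.0855). Its adjusted p ran from 0.00482 to 0.0855 over the 18 alternatives, all by limma.

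With DOX in both lines the same comparison gave 3 genes higher in the NOD1 line and none lower, against 25.8% of all genes called. KIT was at least 2.37-fold higher (log2 1.24, SE 0.134, limma adjusted p = 2.96e-07), CSF1R 1.54-fold (0.63, SE 0.131, limma adjusted p = 0.000785) and FLT3 1.47-fold (0.56, SE 0.0955, limma adjusted p = 9.57e-05). CSF3R differed by 0.31 and was not called (limma adjusted p = 0.0935). Without replicate 1 of the DOX-treated NOD1 line it was called (0.44, limma adjusted p = 0.0153). FLT3LG, which encodes the FLT3 ligand, stood at 9.41, 9.47, 9.34 and 9.21 in the NOD1 line against 9.56, 9.53, 9.49 and 9.58 in the vector line. Those arrays do not overlap, yet the difference of −0.18 was not called (limma adjusted p = 0.11). Arrays did not overlap for 4 of the 8 genes (KIT, FLT3, CSF1R and FLT3LG) and for 28.7% of all genes. The intervals of the other 3 were −0.01 to 0.41 for CSF2RB, −0.20 to 0.32 for EPOR and −0.16 to 0.82 for KITLG. Of all genes called 52.7% were higher, and 43.4%, 48.5% and 64.8% under the scalings named above, in that order.

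**Figure D3:**
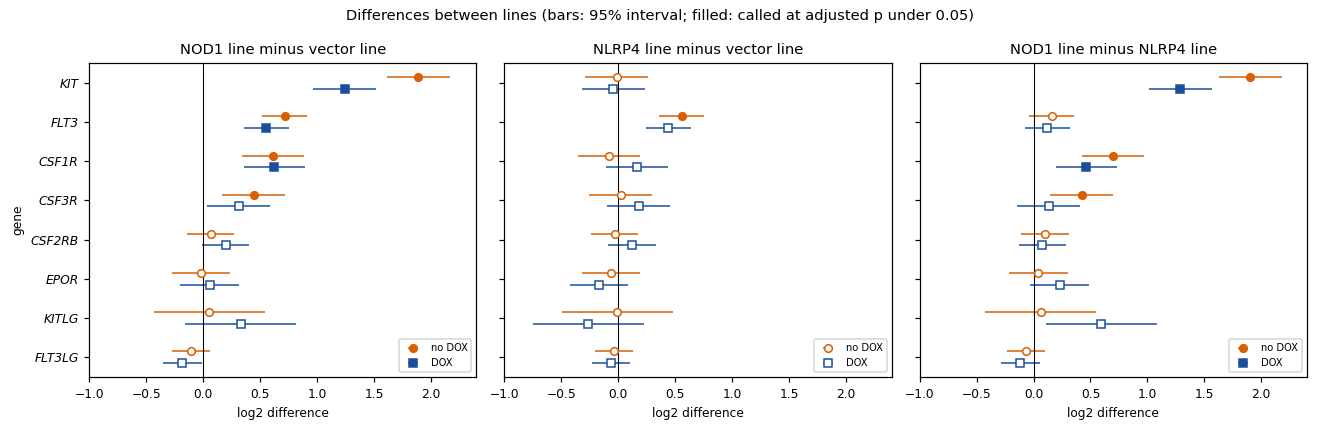
Log2 differences between lines (horizontal axis) for the 8 genes (vertical axis), without DOX (circles) and with DOX (squares); bars are 95% intervals, and filled symbols had an adjusted p under 0.05. KIT is far from 0 in both comparisons that involve the NOD1 line, FLT3 in both that involve the vector line.

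FLT3 was the only one of the 8 genes that differed between the NLRP4 line and the vector line. Without DOX it was 1.47-fold higher in the NLRP4 line (log2 0.56, SE 0.0955, limma adjusted p = 0.0435), its 4 arrays all above those of the vector line. Only 3 genes of 18417, or 0.0163%, were called in this comparison, one of them NLRP4 itself, and FLT3 ranked 2 by p. With DOX the FLT3 difference was 0.44 (95% interval 0.24 to 0.63), again with no overlap, but it was not called (limma adjusted p = 0.17), in a comparison with 0 of the 8 and 0.0380% of all genes called, FLT3 being the 1 of the 8 with an unadjusted p under 0.05. Arrays did not overlap for 2.86% of all genes without DOX and for 5.27% with it. Besides FLT3, only CSF1R with DOX had no overlap, with a difference of 0.16 (interval −0.11 to 0.43). KIT differed by −0.01 without DOX and −0.05 with it, both lines being at the low end.

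The FLT3 call in the uninduced NLRP4 line depended on the settings although the difference itself did not turn. Over 18 alternatives the log2 difference stayed between 0.51 and 0.66, while the limma adjusted p ran from 0.0142 to 0.523 and passed in 6. Leaving out any 1 of the 8 arrays lost the call in all cases but replicate 1 of the vector line.

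Between the NOD1 line and the NLRP4 line, both of which carry an inserted gene, KIT and CSF1R differed and FLT3 did not pass the test. Without DOX KIT was at least 3.74-fold higher in the NOD1 line (log2 1.90, SE 0.134, limma adjusted p = 6.07e-10), CSF1R 1.62-fold (0.70, SE 0.131, limma adjusted p = 0.000254) and CSF3R 1.34-fold (0.42, SE 0.134, limma adjusted p = 0.0208). Their arrays did not overlap, which held for 3 of 8 genes and 25.0% of all genes; 27.0% of all genes were called. The FLT3 difference was 0.16 with a 95% interval of −0.04 to 0.36 (limma adjusted p = 0.246). The CSF3R call was lost without replicate 2 (0.39, limma adjusted p = 0.0597) or replicate 4 (0.33, limma adjusted p = 0.0912) of the uninduced NLRP4 line. Of all genes called 52.4% were higher, and 60.3%, 33.8% and 61.8% under the other scalings.

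With DOX in both of these lines KIT was at least 2.44-fold higher in the NOD1 line (log2 1.29, limma adjusted p = 1.93e-07) and CSF1R 1.38-fold (0.46, limma adjusted p = 0.0102). This was 2 of 8 genes, against 25.4% of all genes called. The CSF1R call was lost in the values as deposited (0.35, limma adjusted p = 0.1), in a fit of only the 8 arrays compared (0.45, limma adjusted p = 0.0534) and without replicate 3 of the DOX-treated NOD1 line (0.35, limma adjusted p = 0.0562). FLT3 differed by 0.12 (interval −0.08 to 0.32). KITLG, which encodes stem cell factor, read 8.49, 9.02, 8.995 and 8.56 in the NOD1 line and 8.13, 8.27, 8.03 and 8.26 in the NLRP4 line. These arrays do not overlap, as for KIT and for 25.7% of all genes, and the difference of 0.59 was not called (limma adjusted p = 0.0691). It was called in 3 of 18 alternatives. Of all genes called 52.6% were higher, and 29.3%, 59.7% and 66.3% under the other scalings. The 3 lines are used in more than 1 comparison each, so these comparisons share arrays.

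DOX within a line was compared with no DOX to see whether the inducer or the induced gene moved the receptor genes within 6 h. None of the 8 genes was called by limma in any line, and few genes were called at all: 0% in the vector line, 0.0163% in the NLRP4 line and 0.0109% in the NOD1 line. At an unadjusted p under 0.05 the count among the 8 was 0 in the vector line, 0 in the NLRP4 line and 1, KIT, in the NOD1 line, where 5.77% of all genes had such a p. KIT in the NOD1 line was 0.49 lower with DOX (95% interval −0.77 to −0.21, SE 0.134, limma unadjusted p = 0.00123, adjusted p = 0.47). All 4 arrays with DOX were below all 4 without, the closest pair being 8.95 and 8.98. Such lack of overlap held for 2.35% of all genes in the NOD1 line, 2.70% in the vector line and 5.14% in the NLRP4 line, and for no other of the 8 genes in any line.

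Over 18 alternatives the KIT difference in the NOD1 line ran from −0.61 to −0.38, with a limma adjusted p of 0.192 to 1. In the vector line KIT differed by 0.15 (interval −0.12 to 0.43) and in the NLRP4 line by 0.12 (−0.15 to 0.40), both with KIT at the low end. The DOX effect on KIT in the NOD1 line minus that in the vector line was −0.64 (limma adjusted p = 1), and minus that in the NLRP4 line −0.61 (limma adjusted p = 0.467). None of the 8 genes was called for such a difference of DOX effects by limma, in which 0.00543% of all genes were called for the NOD1 against the vector line, 0.00543% for the NLRP4 against the vector line and 0.0109% for the NOD1 against the NLRP4 line. At an unadjusted p under 0.05 there was 1 of the 8, KIT, in the first and the last of these, and none in the second.

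**Figure D4:**
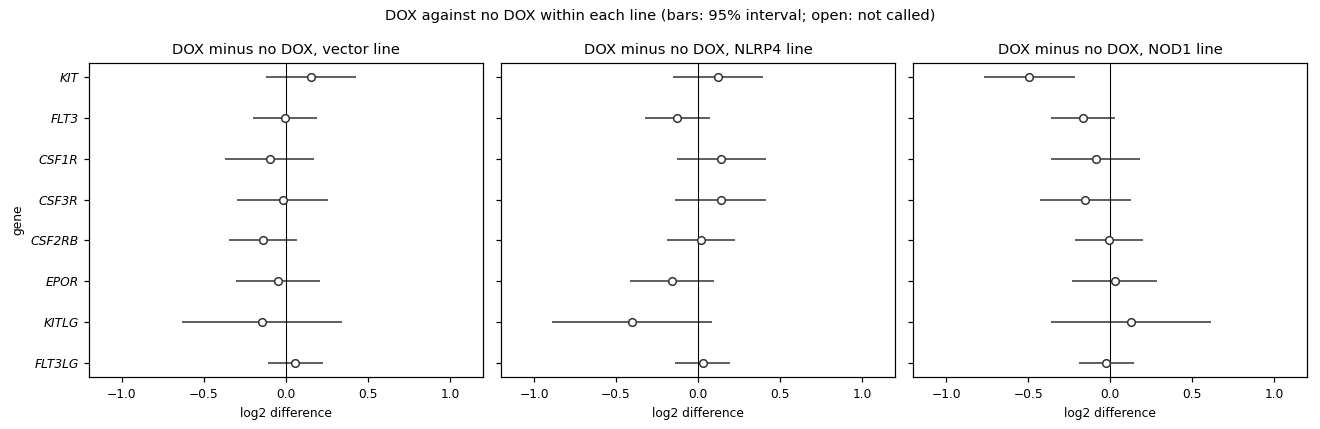
Log2 difference between DOX and no DOX (horizontal axis) for the 8 genes (vertical axis) in the vector, NLRP4 and NOD1 lines; points are differences of group means (4 arrays each), bars 95% intervals, and open symbols mean that no gene passed the adjusted test. The KIT interval in the NOD1 line, −0.77 to −0.21, does not reach 0.

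The DOX intervals of the 8 genes, KIT included, weigh well-to-well scatter only, and DOX cannot be told apart from array order. They lay within −0.63 and 0.43 in the vector line, within −0.89 and 0.42 in the NLRP4 line and within −0.77 and 0.62 in the NOD1 line. KIT set the upper end in the vector line, where it is at the low end of the signal, and the lower end in the NOD1 line. KITLG had the widest of these intervals: its uninduced NLRP4 arrays read 8.09, 8.19, 9.15 and 8.86, so the mean difference of −0.40 with DOX was within their spread (limma adjusted p = 0.686). CSF2RB, the shared beta chain (chr22:36913628-36940439), lay between 8.03 and 8.54 on all 24 arrays, just above the low end. EPOR (chr19:11377207-11384314) lay between 8.13 and 8.82, KITLG (chr12:88492793-88580471) between 7.86 and 9.24, and FLT3LG (chr19:49474215-49486231) between 9.21 and 9.61.

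Genes with a pattern like that of KIT, the one gene of the 8 whose group means span at least 1, were picked from the 830 genes with such a span by their Pearson correlation with KIT over the 24 arrays. The top 5 were TXNIP, a thioredoxin-binding protein gene (r = 0.955), the protein kinase C delta gene PRKCD (0.948), the chitinase-like glycoprotein gene CHI3L1 (0.947), the actin capping subunit gene CAPZB (0.946) and the exonuclease gene EXO5 (0.945). These coefficients rest on the step between the NOD1 line and the others: TXNIP read 14.47 to 14.71 on the 8 NOD1 arrays and 13.30 to 13.73 on the other 16. Within the 8 NOD1 arrays r with KIT was 0.75 for TXNIP, 0.53 for PRKCD, 0.47 for CHI3L1, 0.19 for CAPZB and 0.044 for EXO5. Over the other 16, where KIT is at the low end, r was between 0.11 and 0.34 for these 5. All 24 arrays share the same 6 groups, and the coefficients are given as a description.

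The rest of the receptor machinery was read from 10 lists of signalling genes, 158 of whose 181 genes were measured. These lists, too, were chosen with earlier results of these data known. In the uninduced NOD1 line 43 of the 158 were higher than in the vector line and 18 lower, 38.6% against 24.9% of all genes, with a median difference of 0.15. With DOX 39 were higher and 21 lower, 38% against 25.8%, with a median of 0.06. With dim genes filtered out, 4612 of 14733 genes were called without DOX and 4750 with DOX, a larger share than over all genes. The part of signal level in the shares of the lists was not tested. Of the 158 genes, 30 were called higher and 17 called lower both without and with DOX, 29.7% against 19.1% of all genes, and none was called in opposite directions. Against the vector line the NLRP4 line had none of the 158 called by limma without or with DOX, where 13 and 12 had an unadjusted p under 0.05; of all genes 4.96% and 6.11% had one. DOX called none in any line by limma, and 10 of the 158 in the vector line, 19 in the NLRP4 line and 16 in the NOD1 line had such an unadjusted p, as had 3.38%, 8.05% and 5.77% of all genes.

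Relatives of the 8 genes were read against the same 24.9% of all genes called without DOX and 25.8% with it. Of 8 other genes of the class III receptors and their ligands, only PDGFA, a platelet-derived growth factor chain gene, was called without DOX (log2 0.36, limma adjusted p = 0.00361), and none by limma with DOX, where 1 had an unadjusted p under 0.05. IL6R, the interleukin 6 receptor gene, was the one of 14 other cytokine receptor genes called without DOX (0.72, limma adjusted p = 0.00385). With DOX IL6R (0.66, limma adjusted p = 0.00744) and IL4R, the interleukin 4 receptor gene (0.31, limma adjusted p = 0.0135), were called. None of 10 other ligand genes was called by limma in either, where 0 and 2 had an unadjusted p under 0.05. In the comparison of the NOD1 with the NLRP4 line without DOX, 3 of the 14 receptor genes were higher and 1 lower, against 27.0% of all genes called. At the low end in all 6 groups were 1 of the 8, 7 of the 14 and 6 of the 10, where the signal sets only a bound.

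Downstream genes moved in both directions. They too were compared between the NOD1 and the vector line, where 24.9% of all genes were called without DOX and 25.8% with it. Among 10 JAK-STAT signal transducer genes, 3 were higher and 3 lower in the uninduced NOD1 line. STAT6 was higher by 0.82, STAT3 by 0.77 and JAK1 by 0.31. Among the lower were JAK2, the kinase that EPOR and CSF2RB bind, by −0.92 and the adaptor gene STAM2 by −0.55. With DOX JAK2 differed by −0.98, STAT3 by 0.86 and STAT6 by 0.67. In the list of adaptors and RAS-ERK genes 9 of 17 were higher and 3 lower, and 10 and 3 with DOX. MAPK3, which encodes the kinase ERK1, was 0.88 higher without and 0.41 higher with DOX, the adaptor gene GRB2 0.50 and 0.51, and VAV1 0.76 and 0.68. The RAS exchange factor genes SOS1 (−0.79 and −0.98) and SOS2 (−0.89 and −0.90) were lower. These named genes had limma adjusted p-values of at most 0.0392, and each difference given as higher or lower in what follows was called.

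Of 13 PI3K-AKT and phospholipase C genes, 6 were higher and 2 lower without DOX, and 4 and 2 with it. Of all genes 24.9% and 25.8% were called in these 2 comparisons. MTOR (0.62 and 0.59), AKT1 (0.53 and 0.53) and PDPK1 (0.61 and 0.58) were higher, while PIK3R1, a PI3K regulatory subunit gene (−0.67 and −0.65), and PIK3CG (−0.48 and −0.38) were lower. A list of 10 SRC, FES and related kinase genes gave 1 higher and 3 lower without DOX, and 3 and 3 with DOX. BTK, of the TEC kinase family, was higher (0.40 and 0.41). YES1 (−0.82 and −0.83), FER (−0.86 and −1.18) and TEC (−0.32 and −0.63) were lower.

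Among 31 negative regulators 7 were higher and 5 lower, the same counts without and with DOX, against 24.9% and 25.8% of all genes called. SPRED1, an inhibitor of RAS-ERK signalling, had the largest difference of those named, −1.21 and −1.59. PTPN2 (−0.46 and −0.49) and the RAS-inactivating gene NF1 (−0.47 and −0.48) were lower as well. INPP5D, which encodes the phosphatase SHIP1 (0.79 and 0.60), and PTPN6, which encodes SHP-1 (0.66 and 0.60), were higher. Of 24 genes known as targets of STAT5 or ERK, 10 were higher and 1 lower without DOX, and 4 and 2 with DOX. PIM3 (0.66 and 0.69), MCL1 (0.35 and 0.43) and MYC (0.29 and 0.38) were higher in both. The gene lower without DOX was SPRED1, which is on this list too and was also lower with DOX.

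**Figure D5:**
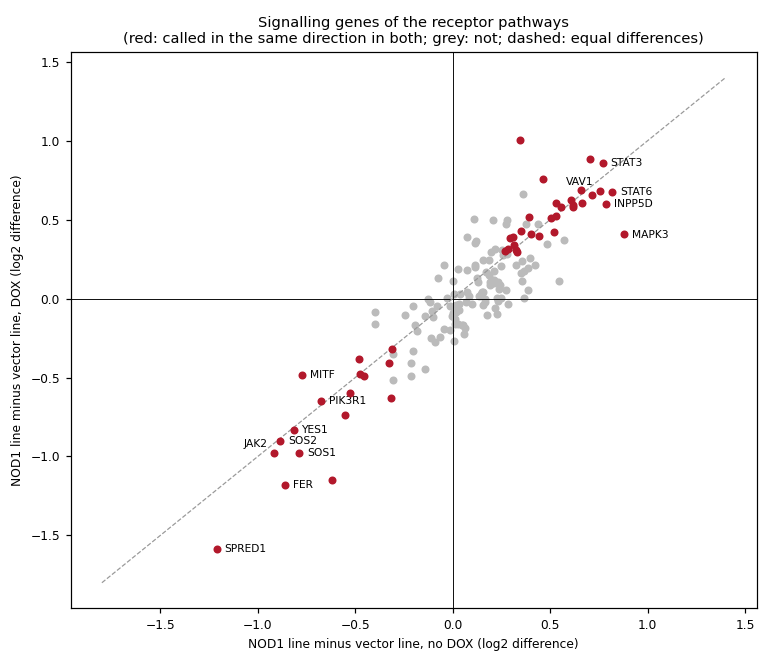
Difference between the NOD1 and the vector line for the 158 signalling genes, without DOX (horizontal axis) and with DOX (vertical axis), as log2 differences; each point is a gene, red where it was called in the same direction in both (30 higher, 17 lower), grey otherwise, and the dashed line marks equal differences. SPRED1 is at the lower left, MAPK3 and STAT3 at the right.

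Transcription factors known to act on these receptor genes were a list of 29. Of these, 7 were higher and 2 lower without DOX, against 24.9% of all genes called. With DOX 6 were higher and 5 lower, against 25.8% of all genes. SPI1, which encodes PU.1, was 0.70 and 0.89 higher, GFI1 0.61 and 0.63, CEBPD 0.44 and 0.40 and FLI1 0.33 and 0.30. MITF, which is known to act on KIT in melanocytes and mast cells, was lower (−0.77 and −0.48).

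Marker genes of blood cell types were read beside KIT, since KIT also marks other cells. The 10 genes measured from the list of monocytic markers include granule protein genes such as AZU1 and CTSG. Of these 10, 8 were higher and 1 lower in the uninduced NOD1 line than in the vector line, and 7 and 1 with DOX. Of all genes 24.9% and 25.8% were called. CD68, a lysosomal glycoprotein gene, was 1.19 and 1.18 higher, the granule protein gene AZU1 0.87 and 0.83, CTSG 0.37 and 0.42 and LYZ 0.42 and 0.46, while the scavenger receptor gene CD36 was lower (−0.68 and −0.58). The summed monocytic signal (log2) was 15.86 to 15.94 on the NOD1 arrays, 15.56 to 15.65 on the NLRP4 arrays and 15.40 to 15.53 on the vector arrays; its part in the receptor differences was not tested. Signals were added before taking the log, so the brightest genes weigh most. Between the NLRP4 and the vector line 0 of the 10 markers were called higher, without or with DOX. Without DOX 0 were lower and with DOX 1 was, against 0.0163% and 0.0380% of all genes called. CD14, a defining monocyte marker, was at the low end in all groups but the uninduced NOD1 line, where it was 8.01, at its edge.

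Stem and progenitor markers were at the low end in every group for 5 of the 6 measured, CD34 and PROM1 among them, and only GATA2 was above it. Their summed signal was 10.00 to 10.12 on the uninduced NOD1 arrays and 9.98 to 10.10 on the uninduced vector arrays. MEIS1, at the low end in both lines, was called lower (−0.33 and −0.41). All 4 mast cell markers measured were at the low end in every group (CPA3, HDC, FCER1A and CMA1), with a summed signal of 8.92 to 9.05 in the uninduced NOD1 line and 8.78 to 8.995 in the uninduced vector line. None of 5 erythroid, 5 megakaryocyte or 5 lymphoid markers was called between the NOD1 and the vector line. There 24.9% of all genes were called without DOX and 25.8% with it. Of the erythroid and the lymphoid genes 1 each had an unadjusted limma p under 0.05 without DOX, and none with DOX. Of all genes 34.2% and 34.7% had one. LAMP5 was the 1 dendritic cell marker of 6 called (0.65 and 0.95 higher). Of 6 fibroblast or epithelial genes EPCAM was called lower, by −1.89 and −1.83, and KRT8 with DOX (−0.36). EPCAM was at the low end in both NOD1 groups, so its differences are bounds. In the vector and NLRP4 lines all 6 were above the low end, so signal above it does not by itself mark a cell type.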

How the data were processed

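RNA from 24 wells was measured on Affymetrix Human Gene ST arrays, 4 in each of 6 groups of line and DOX, grouped by the labels. The authors deposited a log2 signal for every probe set of an array, made with RMA and oligo per the submitters' processing notes (versions and genome build: not given in the sources used here). Arrays differed in distribution, which can carry array brightness into a comparison, so quantile normalization between arrays was added. A single gene symbol was given for 19460 of 33297 probe sets; the one with the highest mean stood for its gene, leaving 18417 genes. The 6 group means were fitted with limma 3.58.1 in R 4.3.3, with eBayes and Benjamini-Hochberg adjustment over all genes for each of 12 comparisons; a gene was called at an adjusted p under 0.05. The procedure was tested on simulated data with independent noise and few changed genes, which cannot probe a difference as wide as that between the lines. The number of arrays limits the precision. Locations, symbols and promoters are those of RefSeq, GRCh38.p14.

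The 8 genes and all gene lists were chosen with earlier results of these data known. From each list up to 5 genes are named, those with the lowest p for the NOD1 against the vector line without DOX among genes called in the same direction with DOX; PDGFA, IL4R, KRT8, CD14, CD34, PROM1, GATA2 and the mast cell genes were named after their values were seen. Alternatives were the values as deposited, median centring, quantile normalization over all probe sets, the mean of all probe sets of a gene, a filter on dim genes, an intensity trend, only the arrays compared, array weights, the array median as covariate, and fits without the 4 dimmest arrays or without each array in turn.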

Additional observations from a re-analysis of the deposited data

Results flagged for a closer look

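Of the 48 combinations of gene and group, 3 held 1 array that stood apart from the other 3; with 4 arrays a group, chance marks about 1 in 20. KIT in the DOX-treated NLRP4 line read 7.545 on replicate 2 and 7.21 to 7.25 on the others, all at the low end. FLT3 in the DOX-treated vector line read 10.43 on replicate 1 and 10.23 to 10.26 on the others. FLT3LG in the DOX-treated NLRP4 line read 9.34 on replicate 2 and 9.51 to 9.52 on the others.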

How the results depend on the processing

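KIT, FLT3 and CSF1R were called higher in the NOD1 than in the vector line in 18 of 18 alternatives without DOX and in 18 of 18 with DOX, and KIT against the NLRP4 line likewise; none of the differences between lines or under DOX that passed the test turned its direction. For the NOD1 against the vector line with DOX, quantile normalization over all probe sets called 5 of the 8 genes in place of 3, adding CSF3R (0.39, limma adjusted p = 0.0287) and CSF2RB (0.27, limma adjusted p = 0.0459). For the NLRP4 against the vector line without DOX the count of 1 became 0 in the values as deposited, with median centring, with only the arrays compared, with the array median as covariate and without the 4 dimmest arrays; leaving out 1 array gave 0 to 1. With DOX, array weights called 1 gene there, FLT3 (0.43, limma adjusted p = 0.0349), in place of 0. For the NOD1 against the NLRP4 line with DOX, the values as deposited called 1 in place of 2, and leaving out 1 array gave 1 to 2. The causes were not tested. Over all 12 comparisons 224 of the counts stayed within 1.5 times or stayed at 0, 3 changed by more, 12 fell to 0 and 1 rose from 0. Many of the 224 carry no information on stability. None of the 8 genes was called for DOX, or for a difference of DOX effects, in any setting. Among all genes the called count ran from 0 to 4 for the NLRP4 against the vector line without DOX (3 as reported) and from 1 to 18 with DOX (7), and with DOX against no DOX from 0 to 1 in the vector line (0), 1 to 8 in the NLRP4 line (3) and 1 to 8 in the NOD1 line (2). The differences of DOX effects called 1 to 2, 1 to 2 and 2 to 4 genes (1, 1 and 2). In the values as deposited the median of all genes shifted by over 0.1 in 7 comparisons, most where DOX effects were compared between the NOD1 and NLRP4 lines (−0.30). No paired analysis was possible because the labels number the arrays consecutively and give the groups no shared replicate numbers. Signals at the low end set a bound only, which limits KIT outside the NOD1 line.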
